A study of Homo sapiens with 42 samples.

Results

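The widest domains of monoubiquitylated histone H2A (H2AK119ub) in NCI-H661 cells were the 500 longest of 28715 domains on chromosomes 1 to 22. They were selected on their measured width: the EPIC2 islands of both H2AK119ub replicates were intersected, pieces within 1 kb were joined, and the longest were kept. NCI-H661 is a large cell lung carcinoma line that expresses the embryonic factors DPPA2 and DPPA4 and was profiled as the untreated parental line. In it, 2 ChIP-seq libraries each were used for H2AK119ub, H3K9me3, H3K27ac, H3K4me1, H3K36me2, H3K36me3, DPPA2 and DPPA4 (labelled DPPA4n), and 1 library each for SUZ12 and KDM2A. NCI-H1299_DOVE is a non-small cell lung cancer line with stably integrated, inducible FLAG-tagged DPPA2 and V5-tagged DPPA4. Its cells received water for 7 days (CTRL) or doxycycline at 2 µg/mL for 7 days (DOX), with 2 libraries per mark and condition for H2AK119ub, H3K27ac, H3K4me1, H3K36me3 and H3K9me3. Both groups carry the transgenes. The methods call replicates independent, but the labels do not say that they came from separate cultures, so their spread may be technical.

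H2AK119ub is laid down by Polycomb repressive complex 1, and SUZ12 is a core subunit of Polycomb repressive complex 2, which methylates histone H3 at lysine 27. The complexes usually meet at CpG-rich promoters of developmental genes that are kept silent. KDM2A is a demethylase of H3K36 that binds unmethylated CpG through a CXXC zinc finger. H3K9me3 marks constitutive heterochromatin, H3K27ac active promoters and enhancers, and H3K36me2 and H3K36me3 broad intergenic regions and transcribed gene bodies, respectively.

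Sequence under a peak is shown for each of 7 named domains, because the domains differed in which factor sat in them and in how many CpGs lay beneath it. Each window covers 151 bases of hg38, plus strand, around a MACS2 summit, avoids annotated untranslated regions, and has its CG dinucleotides in capitals. Peaks whose window touched an untranslated region were dropped first. The strongest peak below is the one of highest fold among those left, so a domain may hold a stronger peak. The first 4 are domains of rank 1, 2, 8 and 25 by width, the fifth had the largest H3K9me3 share, the sixth the most KDM2A peaks and the seventh the most DPPA2/4 peaks.
ZNF536 domain, strongest SUZ12 peak, chr19:30375342-30375492: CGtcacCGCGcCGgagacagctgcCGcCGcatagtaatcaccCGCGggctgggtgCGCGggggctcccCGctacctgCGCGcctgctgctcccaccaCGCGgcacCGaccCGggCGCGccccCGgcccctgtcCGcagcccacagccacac
VSTM2B domain, strongest SUZ12 peak, chr19:29489981-29490131: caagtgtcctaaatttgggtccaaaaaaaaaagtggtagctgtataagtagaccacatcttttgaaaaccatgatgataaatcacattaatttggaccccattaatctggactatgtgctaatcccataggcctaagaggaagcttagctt
IRX4 domain, strongest SUZ12 peak, chr5:1875253-1875403: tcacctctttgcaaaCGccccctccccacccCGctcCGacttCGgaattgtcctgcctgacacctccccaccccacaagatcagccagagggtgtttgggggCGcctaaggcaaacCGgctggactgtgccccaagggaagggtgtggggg
NKX2-1 domain, strongest SUZ12 peak, chr14:36519069-36519219: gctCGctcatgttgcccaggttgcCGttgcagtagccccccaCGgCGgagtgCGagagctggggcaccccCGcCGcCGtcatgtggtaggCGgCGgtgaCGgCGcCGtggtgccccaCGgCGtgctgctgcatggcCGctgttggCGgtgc
IRX2 domain, strongest SUZ12 peak, chr5:2756520-2756670: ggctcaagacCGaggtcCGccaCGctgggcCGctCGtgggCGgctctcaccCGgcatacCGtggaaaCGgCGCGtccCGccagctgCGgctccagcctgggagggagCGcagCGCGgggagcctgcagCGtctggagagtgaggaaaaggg
ZFP36 and PLEKHG2 domain, strongest KDM2A peak, chr19:39412149-39412299: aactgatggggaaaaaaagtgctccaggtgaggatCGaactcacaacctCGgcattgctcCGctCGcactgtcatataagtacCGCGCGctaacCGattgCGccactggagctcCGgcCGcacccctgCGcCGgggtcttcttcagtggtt
UNCX domain, strongest DPPA2 peak, chr7:1236234-1236384: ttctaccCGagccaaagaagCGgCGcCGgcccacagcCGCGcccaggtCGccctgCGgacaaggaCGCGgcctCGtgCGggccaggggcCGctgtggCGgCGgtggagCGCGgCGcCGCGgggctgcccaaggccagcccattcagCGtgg
The ZNF536 window held 21 CpGs, the VSTM2B window 0, the IRX4 window 6, and the NKX2-1 and IRX2 windows 17 each. The KDM2A window held 13 and the DPPA2 window in UNCX 21. The peak of the KDM2A window was not a strong one, with a fold of 5.22 against a median of 5.26 for KDM2A peaks in the 500. The ZNF536 and UNCX windows lay inside those genes and the NKX2-1 window inside both NKX2-1 and SFTA3, while the other 4 lay in no protein-coding gene. Genes of other types were not looked up in the windows. Across all 2387 SUZ12 peaks in the 500 domains, the median window held 3 CpGs (quartiles 1.5 and 6), against 4 for the 11368 peaks in narrower domains and 2 for the 19514 peaks outside any domain. KDM2A summits were far richer, with a median of 18 CpGs in the 500 domains, 19 in narrower domains and 16 outside.

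Widths ran from 9.5 to 155 kb with a median of 13.9 kb, against a median of 0.9 kb for all other domains. The limit fell inside a tie: 11 domains were 9500 bp wide, of which 3 were kept and 8 left out by the order of their chromosome names, and the next width below was 9400 bp. The 500 domains spanned 8.38 Mb, which is 0.304% of the autosomal genome and 16.8% of the length under all domains. A domain was assembled from a median of 7 pieces. These values chose the members and are given as a description.

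The widest domain, chr19:30244001-30399100, covered 155 kb around a start site of ZNF536, a zinc finger transcriptional regulator of neuronal differentiation. It was followed by a 73 kb domain at VSTM2B, chr19:29481501-29554500, and a 68 kb domain at PMEPA1, chr20:57669901-57737900, whose product dampens TGF-beta signalling. A 45 kb domain, chr5:1860001-1905000, held IRX4, an Iroquois homeobox gene. The remaining 6 of the 10 widest held no start site of a protein-coding gene. All but 1 of them were on chromosome 19. A pair lay inside the ZNF536 gene, at 43.8 and 170 kb from its start site, and the others overlapped no protein-coding gene, at 67.3 kb from the start site of VSTM2B and 68.1 and 131 kb from that of UQCRFS1. The last was on chromosome 14, at 30.0 kb from the start site of NFKBIA, which encodes an inhibitor of NF-kappaB.

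The domains were unevenly spread. Chromosome 19 held 104, chromosome 20 held 88 and chromosome 5 held 65, together 257 of the 500, and chromosomes 9 and 15 held none. When domains within 100 kb of each other were grouped, they fell into 202 stretches. Of these, 22 stretches with at least 5 domains held 253 domains, while 139 domains stood alone, and 163 of the 500 lay within 5 Mb of a chromosome end. The fullest stretch, chr5:997801-2279700, had 26 domains, and NKD2, IRX4 and TERT, which encodes the catalytic subunit of telomerase, had their start sites within it. A stretch of 25 domains, chr19:28821401-29888500, held the start sites of UQCRFS1, VSTM2B and CCNE1, which encodes cyclin E1, and 15 domains covered 564 kb of chr19:30060901-30737900, where ZNF536 was the only gene with a start site. Neighbouring domains share a locus and are not independent observations.

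Input reads moved with membership. The matched input held a median of 8.66 reads per kb in the 500 domains, 6.94 in the next 500 by width and 5.89 in all other domains. It reached 13.3 in the 104 domains on chromosome 19, against 9.21 in all H2AK119ub domains and 4.44 in H3K36me3 islands of that chromosome, and 13.8 in the 29 on chromosome 14. The median ratio of ChIP to input reads in the islands of the 500 was 3.53 in replicate 1 and 7.89 in replicate 2, against 4.00 and 7.75 in domains outside the 500, so the replicates differed in direction, and in the 10 widest it was 2.77 and 6.36. The part of input density, which rises with DNA copy number, in the widths was not tested. When only islands with a log2 fold above 1 over input were intersected, 308 of the 500 domains had at least 50% of their length in the new 500, and 200 of that new set lay on chromosomes 5, 19 and 20.

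**Figure D1:**
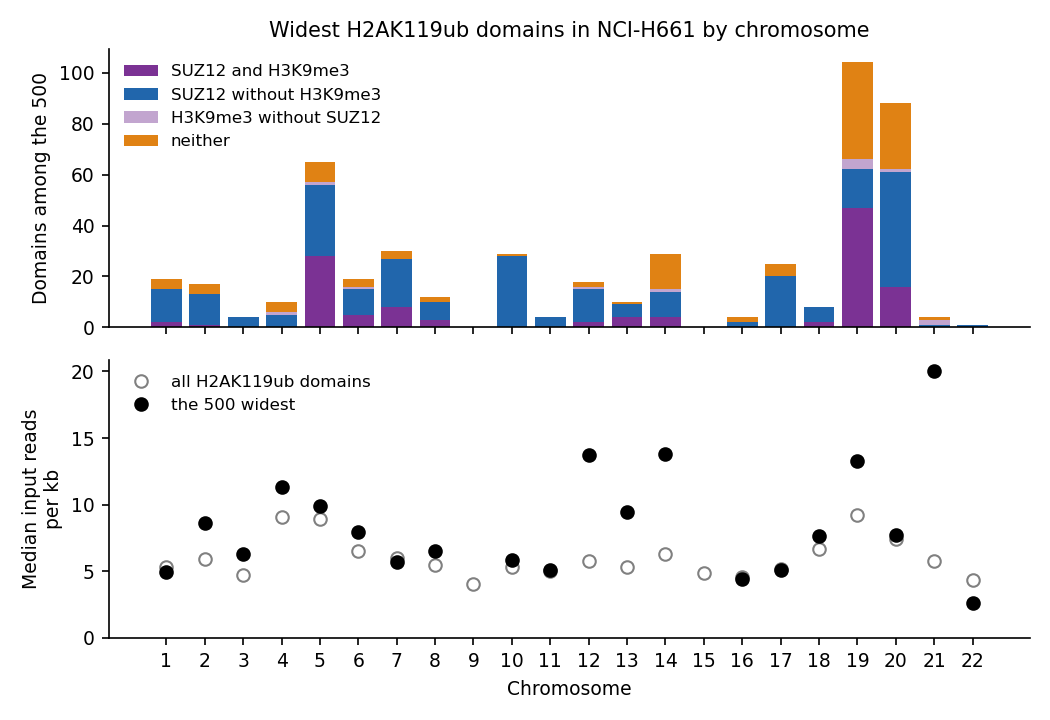
Number of the 500 widest H2AK119ub domains on each autosome, stacked by class (upper panel), and the median input reads per kb in those domains (filled points) and in all H2AK119ub domains (open points) of the chromosome (lower panel). Chromosomes 19, 20 and 5 hold 257 of the 500, and on chromosomes 12, 14, 19 and 21 the members' median input is 13.7, 13.8, 13.3 and 20.0 reads per kb against 5.78, 6.32, 9.21 and 5.74 in all domains.

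SUZ12 lay in most of the domains and covered most of their length. A SUZ12 peak was present in 370 of the 500 (74%, 95% Wilson interval 70.0 to 77.7%), against 24.9% of all 28715 domains. A wider domain has more room for a peak, and per length the values lay close together, at 285 SUZ12 peaks per Mb in the 500, 286 in the next 500 by width and 277 in all other domains. Broad SUZ12 islands covered 65.2% of the length of the 500, 61.6% in the next 500 by width, 50.2% in all other domains, 34.1% of flanks as long as the domain on either side and 4.18% of the autosomal genome. The members split, with a median of 86.0% of the length under SUZ12 and 113 domains with none. Intervals on shares of domains, here and below, cover counting error only.

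The domains richest in SUZ12 peaks were at the ZNF536 start site with 93 peaks, near VSTM2B with 33, at PMEPA1 with 32, further inside the ZNF536 gene with 28 and near UQCRFS1 with 27. All 5 were under SUZ12 islands for 97.6 to 100% of their length. SUZ12 was profiled in a single library, so these values have no replicate.

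H3K9me3 was layered over part of the SUZ12 domains. It covered at least 25% of the length in both replicates in 134 domains (26.8%, interval 23.1 to 30.8%). The share was 23.2% in the next 500 by width, inside that interval, and 14.5% in all domains. Of the 134, 122 also held a SUZ12 peak. The count depended on the limit, at 229 domains with H3K9me3 over 10% or more and 65 with 50% or more. It also depended on place: the share was 37.7% on chromosomes 5, 19 and 20 and 15.2% elsewhere, and 39.2% in the 250 domains with more input reads against 14.4% in the 250 with fewer. In the ZNF536 domain H3K9me3 covered 51.6% of the length in replicate 1 and 49.8% in replicate 2, and in the domain near VSTM2B 77.0% and 98.1%. The largest share was at IRX2, a second Iroquois gene, with 96.6% and 100% of its 11.8 kb, of which 93.2% was also under SUZ12. The next 4 held no start site, with 82.5 to 86% in replicate 1 and 85 to 98.4% in replicate 2, and 83.3 to 100% under SUZ12. Being bulk chromatin, the lists cannot tell whether both marks sat on the same chromosomes or in different cells.

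**Figure D2:**
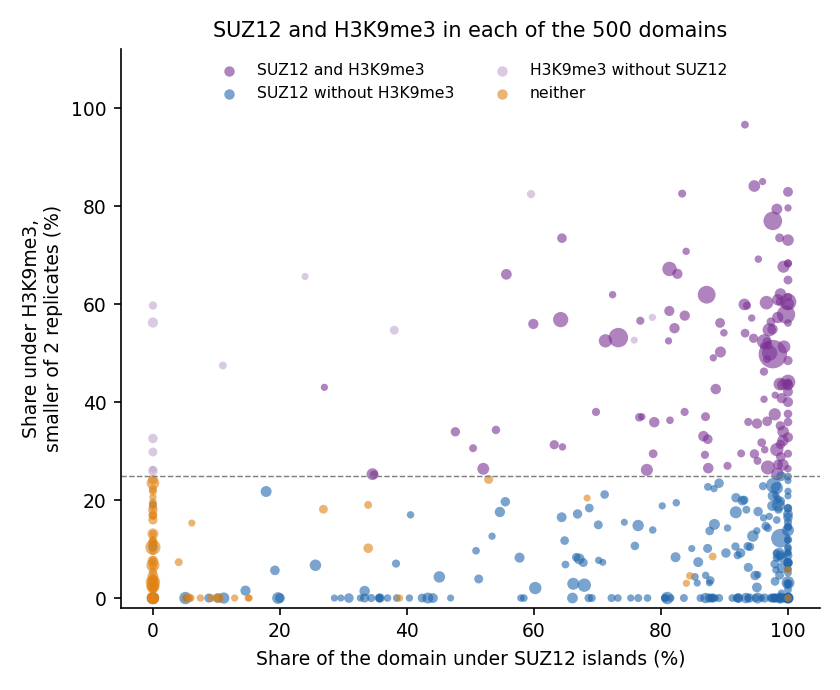
Share of each of the 500 domains under SUZ12 islands (x axis, %) and under H3K9me3 islands, smaller of 2 replicates (y axis, %), with point area proportional to width and the dashed line at 25%. Points crowd toward 0 and 100% on the x axis, and 80% of the 10 widest domains lie above the line.

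By SUZ12 peak and H3K9me3 the 500 fell into 4 classes that differed in the marks not used to define them. The 248 domains with SUZ12 and without H3K9me3 were the most CpG-rich, with a median of 29.5 CpGs per kb, and 129 of them (52%) held a protein-coding start site. The 122 with both were the widest, with a median of 17.4 kb, but had 14.9 CpGs per kb and 18 (14.8%) with a start site. H3K9me3 without SUZ12 was found in 12. The other 118 had neither, and these carried active marks: H3K27ac covered 46.5% and 60.1% of their length in replicates 1 and 2, against 6.89% and 13.3% in the SUZ12 domains without H3K9me3 and 1.49% and 4.01% in those with it. H3K36me3 followed the same order, with 23.3% and 23.5% in the domains with neither, 1.55% and 2.36% with SUZ12 alone and 0.276% and 2.10% with both. H3K4me1, a mark of primed and active enhancers, covered 39.1% and 47.4% of the domains with neither. H3K36me2 covered 11.5% and 55.5% of them, 3.56% and 20.8% with SUZ12 alone and 0.778% and 8.22% with both, so that the order of the classes held in each replicate while the replicates differed widely.

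**Figure D3:**
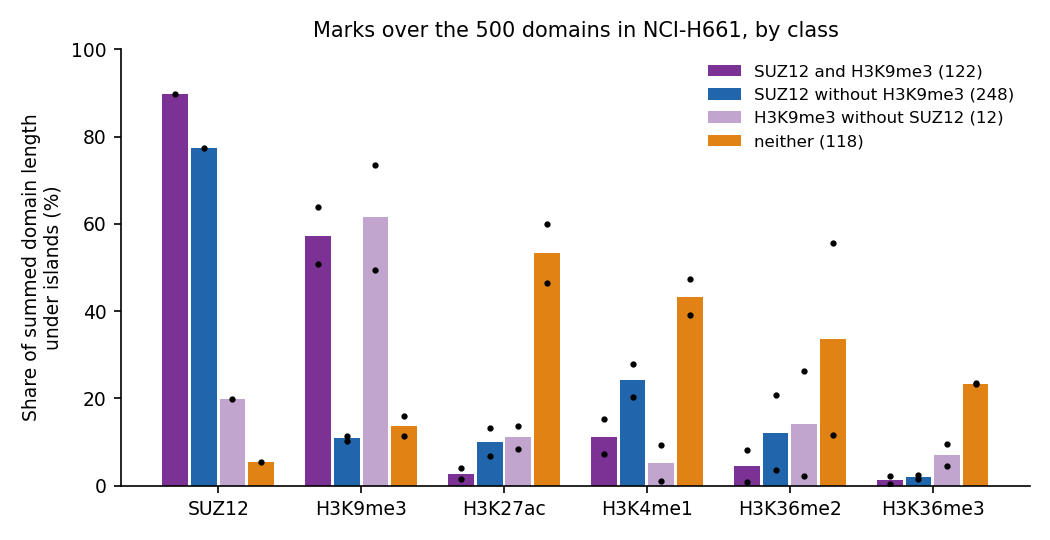
Share of the summed length of each class under islands of 6 factors or marks in NCI-H661 (y axis, %), with bars at the mean and points at single libraries (1 for SUZ12, 2 for each mark). The 118 domains with neither SUZ12 nor H3K9me3 have the highest H3K27ac, H3K4me1, H3K36me2 and H3K36me3 means.

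In raw reads from the islands that chose the domains, H2AK119ub was about as dense in the 118 domains with neither as in the SUZ12 classes. The median was 30.1 reads per kb in replicate 1 and 68.4 in replicate 2. It was 30.4 and 66.1 in the SUZ12 domains without H3K9me3 and 29.9 and 67.0 in those with both. Input was denser in the 118, with a median of 11.5 reads per kb against 6.73 and 10.0. The ratio of ChIP to input reads in replicate 1 was lower in the 118, at 2.61 against 4.54 and 3.03. Of the 118, 72 lay on chromosomes 5, 19 and 20. The part of input density in this class was not tested. Examples were the domain near NFKBIA, under H3K27ac for 99.5% of its length in both replicates, and that at ZFP36, which encodes an mRNA decay factor, and PLEKHG2, at 100% and 99.1%. At OGFR and COL9A3 on chromosome 20 the H3K27ac shares were 83.0% and 100%. H3K9me3 covered 34.2 and 10.4% of the domain near NFKBIA in replicates 1 and 2, and 29.4 and 2.40% of that at ZFP36. These domains passed the 25% limit in replicate 1 only, so they counted as without H3K9me3. At OGFR and COL9A3 the H3K9me3 shares were 4.92 and 0%. Input in the domain near NFKBIA was 24.1 reads per kb. The same pattern was seen outside the 500, where H3K27ac covered 19.7% and 32.2% of domains with neither and 4.16% and 7.52% of those with SUZ12 alone.

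KDM2A and DPPA2/4 were found together in a minority of the domains, and largely away from H3K9me3. A DPPA2/4 consensus peak, called in both DPPA2 and both DPPA4 libraries with over 25% of each peak overlapping, lay in 148 of the 500 (29.6%, interval 25.8 to 33.7%), against 10% of all domains. Per length the order was reversed, with 34.1 consensus peaks per Mb in the 500, 44.8 in the next 500 by width and 70.3 in all other domains. A KDM2A peak lay in 50 domains (10%, interval 7.67 to 12.9%), against 2.17% of all domains, or 9.55 per Mb against 16.0 in all domains outside the 500. Of the 50 domains with KDM2A, 49 held a consensus peak and 44 a protein-coding start site. Consensus peaks occurred in 56 of the 118 domains with neither SUZ12 nor H3K9me3, in 86 of the 248 with SUZ12 alone and in 6 of the 122 with both. The counts moved with the definition: 79 domains had a consensus peak when over 50% of each peak had to overlap, and 254 had KDM2A when its broad islands replaced narrow peaks. The KDM2A share was 15.6% without H2AK119ub replicate 1 and 6% without joining.

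UNCX, a homeobox gene on chromosome 7, had the most consensus peaks, with 8 in 30 kb, together with 5 SUZ12 peaks, SUZ12 over 81% of its length and H3K27ac over 0% and 10%. The domains with the next most held OGFR and COL9A3 (7 peaks), ZFP36 and PLEKHG2 (6), NKX2-1 and SFTA3 (5), and DLL3, a Notch ligand, and SELENOV (5). ZFP36 and PLEKHG2 also had the most KDM2A peaks, 9, followed by TBX2, a T-box factor, with 5, and SOX18, an endothelial factor, RGS19 with OPRL1 and LKAAEAR1, and ELFN1 with 3 each. NKX2-1, the lung lineage factor, lay in a 31.8 kb domain that was under SUZ12 for 100%, H3K27ac for 59.4% and 77.7%, and KDM2A islands for 62.3% of its length, with input at 20.3 reads per kb.

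The genes inside were few in number but rich in developmental regulators. A protein-coding start site lay in 189 domains (37.8%, interval 33.7 to 42.1%). In the next 500 by width 32.6% held a start site, and in all domains 7.42%. The start sites in the 500 belonged to 214 genes of 19111 (1.12%). Per length this was 25.5 start sites per Mb in the 500 and 48.2 in all other domains. With only the widest domain of each of the 202 stretches, 60.4% held a start site. A further 143 domains lay in gene bodies without a start site and 168 touched no protein-coding gene. Among homeobox genes outside the HOX clusters, 28 of 145 (19.3%) had their start site in the 500, led by width by IRX4, NKX2-1, UNCX and NKX6-2. Of 39 HOX genes, 6 did (HOXD13, HOXA5, HOXA6 and HOXD3 in the widest), and of 99 PAX, SOX, FOX, TBX, GATA and ZIC genes, 11 did (FOXF1, GATA5, FOXF2 and PAX7 in the widest). Basic helix-loop-helix regulators contributed 5 of 43, including OLIG2 of the oligodendrocyte lineage, HAND1, PTF1A and NEUROG3.

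These 50 regulators lay in 48 domains, and 44 of the 50 were in the class with SUZ12 and without H3K9me3. IRX2, IRX4, PROX1 and PAX9 were in domains with both, NKX2-8 with H3K9me3 alone and SOX18 with neither. Only 9 of the 48 domains lay on chromosomes 5, 19 and 20. At FOXF1 SUZ12 covered 100% of 25 kb with no H3K9me3 or H3K27ac island in either replicate, and PAX7 was alike, with SUZ12 over 95.2% of 23 kb. In the other lists reported, smaller shares had a start site in the 500: 2 of 42 cadherins outside the clusters (CDH22 and PCDH8), 2 of 39 Wnt pathway genes (WNT7B and SFRP1), 2 of 42 collagens (COL9A3 and COL20A1), 7 of 359 solute carriers (SLC12A7, SLC9A3, SLC32A1 and SLC6A19 in the widest), 2 of 496 ZNF genes (ZNF536 and ZNF512B), 1 of 43 glutamate and GABA receptor genes (GRIK3) and 1 of 149 keratin genes (KRT74). None of the 53 clustered protocadherin, 414 olfactory receptor, 78 histone, 32 BMP, 36 Polycomb subunit or 79 cytosolic ribosomal protein genes had a start site there. Over domains of any width, 57.1% of collagen and 51.3% of Wnt pathway genes had a start site in a domain. This was 58.1% for basic helix-loop-helix, 53.8% for HOX and 46.9% for other homeobox genes. It was 37.4% for PAX, SOX, FOX, TBX, GATA and ZIC genes and 11.6% for all protein-coding genes. Cadherin, solute carrier, ZNF, keratin and receptor genes had 1.81 to 34.9%.

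**Figure D4:**
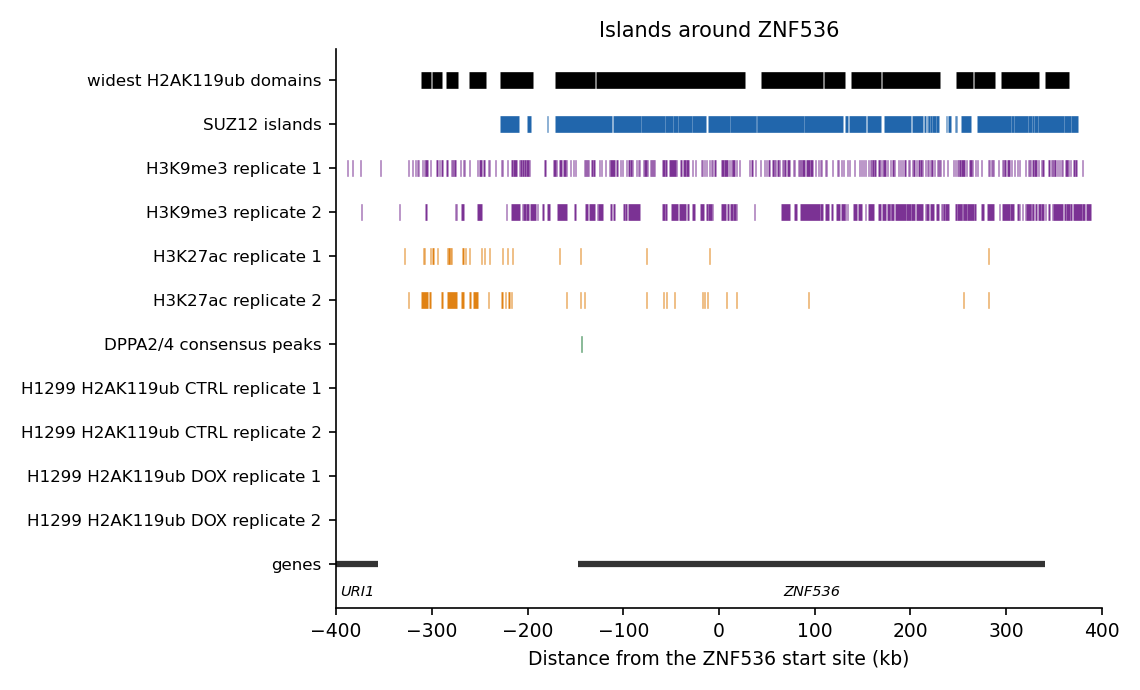
Islands and peaks over 800 kb centred on the ZNF536 start site (x axis, kb), with 1 row per list. The 15 domains of the 500 and the SUZ12 islands fill 564 and 534 kb, H3K9me3 fills 347 and 392 kb in replicates 1 and 2, and no H1299 H2AK119ub island is listed in any of 4 libraries.

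Before the H1299 values, the labels and the reads in islands were checked. H3K27ac islands covered 2800 and 2784 bp of a window reaching 1500 bp to either side of the DPPA2 start site in H661 and 2055 and 3000 bp at DPPA4. None was listed there in any H1299 CTRL or DOX library, and the lists do not show the transgene copies. Reads in H2AK119ub islands (log2 fold above 1) numbered 1312341 and 6606498 in H661, 302652 and 570506 in CTRL and 455501 and 449579 in DOX. These are reads inside islands and not sequencing depth. Whether an island not listed in H1299 was absent or only undetected was not tested.

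In H1299, H2AK119ub islands touched most of the 500 domains but covered little of them. An island lay in at least 1 of the 4 libraries in 279 domains (55.8%), against 26.5% of all domains, and in all 4 in 117, against 2.49%. By library, 175 and 219 domains had one in CTRL replicates 1 and 2, and 206 and 201 in DOX. The median domain had 1.25% of its length covered (mean over the libraries), and 221 had none in any library. That median was 3.01% when the domains were made from islands with a log2 fold above 1, and 0% without joining. Over the summed length the share was 3.55 and 5.61% in CTRL and 5.48 and 5.47% in DOX. CTRL thus averaged 4.58 ± 1.46% (SD, n = 2) and DOX 5.48 ± 0.00675% (SD, n = 2), and both DOX values lay inside the CTRL range (exact permutation test, two-sided p = 1, where the smallest p that 2 against 2 allows is 0.333). For comparison, 3.94 to 7.49% of all other domains, 1.48 to 3.02% of the flanks and 0.493 to 0.874% of the autosomal genome were covered across the 4 libraries.

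The classes set in H661 differed in H1299. Both classes with H3K9me3 were little covered. The 122 domains with SUZ12 and H3K9me3 had 0.849 and 0.916% in CTRL and 1.35 and 1.14% in DOX, and 82 of them had no island in any library. The 12 with H3K9me3 and without SUZ12 had 0.858 and 0.736% in CTRL and 0.429 and 0% in DOX. SUZ12 domains without H3K9me3 were covered for 5.28 and 7.58% in CTRL and 7.28 and 7.1% in DOX. Those with neither were covered for 4.21 and 9.01% in CTRL and 8.41 and 9.11% in DOX, so the classes without H3K9me3 overlapped. In each of the 4 libraries both classes with H3K9me3 lay below both without it. Of the 117 domains with an island in all 4 libraries, 79 held a DPPA2/4 consensus peak in H661, 78 SUZ12 and 80 a protein-coding start site. H1299 H3K9me3 islands covered at most 1.58% of the 500 in any library, against 25.2 and 29.4% in H661. Reads in H3K9me3 islands numbered 137138 to 305075 in H1299 and 1898007 and 2900561 in H661, and the part of sequencing depth in the difference was not tested.

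**Figure D5:**
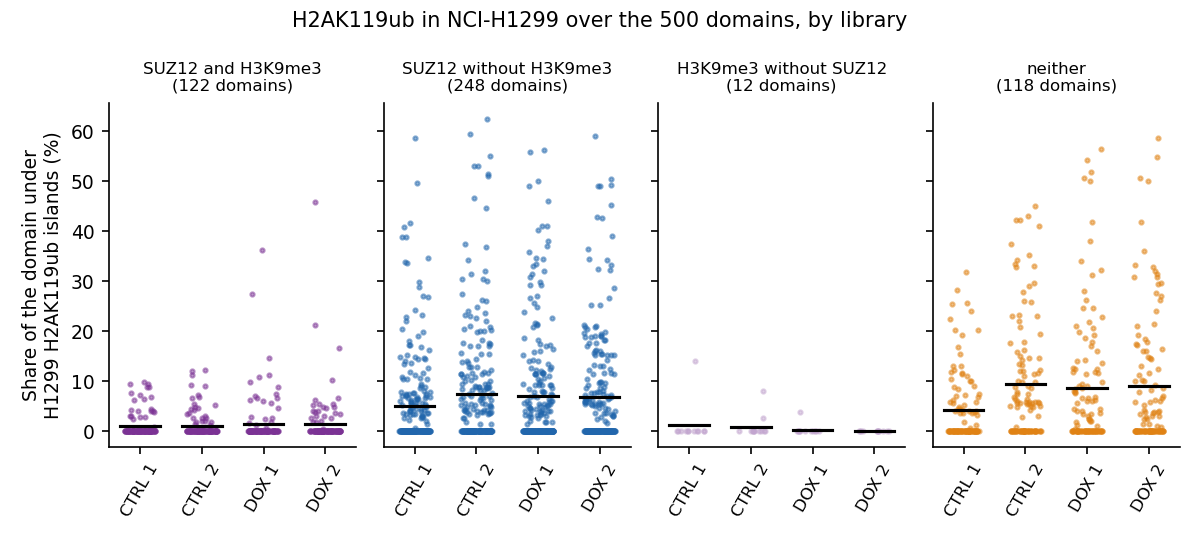
Share of each of the 500 domains under H2AK119ub islands in NCI-H1299 (y axis, %), per library (CTRL 1, CTRL 2, DOX 1, DOX 2) and class, with 1 point per domain and a line at the mean. Domains with both SUZ12 and H3K9me3 in H661 mostly lie at 0 (82 of 122 have no island in any library), and domains of the other large classes reach above 50%.

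The domains most covered in H1299 held NTSR1, a neurotensin receptor gene, with 38.8 and 62.4% in CTRL and 55.8 and 49.1% in DOX, NOTUM, a secreted Wnt inhibitor, with 40.8 and 55.1% and then 49.0 and 49.0%, and EMX1, a forebrain homeobox gene, with 49.6 and 46.7% and then 56.2 and 34.3%. NRN1, which encodes neuritin, had 41.7 and 51% in CTRL and 50.0 and 32.3% in DOX. VGF, a neuropeptide precursor gene, had 18 and 53% in CTRL and 41 and 59% in DOX. In each of these 5, CTRL and DOX values overlapped. The widest domains without any H1299 island were 5 of the 7 widest of the 500, 3 of them at or inside ZNF536 and the others near VSTM2B and near UQCRFS1 on chromosome 19.

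Between conditions, 55 of the 279 domains with an H1299 island (19.7%) had both DOX shares above both CTRL shares, against 12.9% of all domains with an island, and 28 (10.0%) had both CTRL shares above, against 7.02%. CTRL replicate 1 had the fewest reads in H2AK119ub islands of the 4 libraries. Wider domains also held an H1299 island more often (55.8% of the 500 against 26.5% of all), and the part of width in these shares was not tested. The test covered only regions under islands in all 4 libraries, so islands gained or lost with DOX were left out beforehand. None of the regions tested passed. Of 124 regions under H2AK119ub over at least 50% of their length in all 4 libraries, 10 lay in 9 of the 500 domains and 0 were called by edgeR's quasi-likelihood test (0% of the 124), with 6 regions at an unadjusted p under 0.05 by edgeR, 2 of them in the domains, and 0 by DESeq2. The median log2 change, DOX against CTRL, was 0.17 over the 10 and -0.02 over the 124.

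The smallest p belonged to chr7:155450001-155452300, in the domain of EN2, a homeobox gene of the midbrain and hindbrain. It had 28 and 34 reads in CTRL and 33 and 63 in DOX, a log2 change of 0.79 (SE 0.30, edgeR adjusted p = 0.501), yet the share of the whole EN2 domain under islands was 58.6 and 53.1% in CTRL and 37.0 and 19.1% in DOX. A region in the FOXF1 domain had 48 and 50 reads in CTRL and 58 and 65 in DOX (log2 change 0.50, SE 0.23, edgeR adjusted p = 0.706). At NTSR1 the counts of chr20:62706501-62708600 were 33 and 38, then 46 and 46 (log2 change 0.54, SE 0.29, edgeR adjusted p = 0.706). Another tested region of the NTSR1 domain, chr20:62708901-62711500, had 63 and 86, then 74 and 68 (log2 change 0.11, SE 0.22, edgeR adjusted p = 0.887). Its CTRL and DOX counts overlapped. In the 3 regions of smallest p, both DOX counts were above both CTRL counts at FOXF1 and NTSR1 and overlapped them at EN2, and none of the 3 passed. Counts grow with the length under islands, which differed between libraries. Per kb under islands, FOXF1 had 21.8 and 29.4 reads in CTRL and 29 and 23.2 in DOX. The NTSR1 region of smaller p had 23.6 and 34.5, then 25.6 and 25.6, and EN2 21.5 and 20, then 20.6 and 27.4. By this measure CTRL and DOX overlapped in all 3.

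H3K27ac in H1299 covered 0.994 and 0.919% of the 500 domains in CTRL and 4.24 and 1.31% in DOX, with both DOX values above both CTRL values (exact permutation test, two-sided p = 0.333, the smallest the design allows). DOX replicate 1 held 2750053 reads in H3K27ac islands against 752582 to 970560 in the other 3, and its part in the difference was not tested. The same order was seen for other marks over the 500 domains. H3K4me1 covered 3.12 and 4.04% in CTRL and 4.76 and 4.70% in DOX, and H3K36me3 0.871 and 1.13%, then 1.61 and 1.53%. H3K9me3 covered 0.263 and 0.963%, then 1.23 and 1.58% (exact permutation test, two-sided p = 0.333 for each mark). Only for H2AK119ub did CTRL and DOX overlap. Of 3260 H3K27ac regions tested, 5 lay in 5 of the domains and 0 were called by edgeR (0% of the 3260), with 184 regions at an unadjusted p under 0.05 by edgeR, 1 of them in the domains, and 9 by DESeq2. That region, in the ACTN4 gene on chromosome 19, had 140 and 193 reads in CTRL and 465 and 257 in DOX (log2 change 0.37, SE 0.18, edgeR adjusted p = 0.858). The PMEPA1 and TFAP2A regions had log2 changes of -0.32 (SE 0.20, edgeR adjusted p = 0.99) and 0.21 (SE 0.16, edgeR adjusted p = 0.999).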

How the data were processed

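Chromatin of NCI-H661 and NCI-H1299_DOVE was profiled by ChIP-seq. Per the labels, BWA 0.7.13 on hg38, Picard 2.6.0, deepTools 3.5.0, Trim Galore 0.6.6 and SAMtools 1.9 served for the reads, and lists were called against input. The EPIC2 lists deposited by the authors give island bounds, ChIP and input counts, a p-value and FDR, a log2 fold over input and a score. The deposited MACS2 lists give peak bounds, a score, a fold enrichment ratio and -log10 p and q. Blacklisted regions were not removed here, and spike-in scaling could not be applied to lists.

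H2AK119ub domains used all deposited islands, and every other list was limited to a log2 fold above 1 and FDR below 0.05. Start sites were those of canonical GENCODE 44 transcripts. Members, gene lists and named items were chosen with earlier results of these data known. Named were the genes of the 10 widest domains, up to 4 genes per list in the widest domains, the 5 domains with the most SUZ12, DPPA2/4 or KDM2A peaks, the largest H3K9me3 share, and the largest and smallest H1299 share, and the 3 H1299 regions per mark with the smallest p. PROX1, PAX9, NKX2-8 and others outside the rule were named after their values were seen. The list of ion channel genes is not reported here.

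For DOX against CTRL, joined H1299 islands covered over at least 50% in every library were tested with edgeR 4.0.16 (R 4.3.3; quasi-likelihood, TMM, replicate number as block, Benjamini-Hochberg over all regions), with DESeq2 1.42.0 as an alternative; a call needed a log2 change of 0.5 or more in size and an adjusted p under 0.05. Counts are reads in islands, so reads outside islands do not enter. A region without an island in 1 of the libraries does not enter either, so gain or loss of whole islands was not tested. The methods describe complete batches, and that replicate numbers mark them was assumed, since the labels do not say so; deviations of same-numbered libraries correlated at 0.104 for H2AK119ub and 0.266 for H3K27ac. The fit was tested on simulated data.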

Additional observations from a re-analysis of the deposited data

How the results depend on the processing

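Limits: SUZ12 and KDM2A have 1 library each, islands depend on depth and input, and H2AK119ub replicate 2 listed 133623 islands against 53234 in replicate 1. Under 8 other ways of making the domains, set with earlier results known, and 2 added after seeing the data (the widest domain of each of 202 stretches; the 500 longest without chromosomes 5, 19 and 20), the shares moved as follows where they left the interval of the value reported. With islands of log2 fold above 1, SUZ12 was 84%, consensus 35.2%, start sites 46.6% and the median H1299 share 3.01%. Leaving out H2AK119ub replicate 1 gave 69.4% for SUZ12, 15.6% for KDM2A, 40.8% for consensus, 22% for H3K9me3 and 44.6% for start sites. Without replicate 2 these were 75.6, 9.8, 28.6, 25 and 38%, all inside their intervals. Without joining, KDM2A was 6%, consensus 24.8%, start sites 28.6% and the median H1299 share 0%. Joining within 5 kb gave 79.4% SUZ12, 14.6% KDM2A and 20.2% H3K9me3. The 250 longest had 80.8% SUZ12 and 34.8% H3K9me3. The widest of each stretch had 77.7% SUZ12, 36.6% consensus, 17.8% H3K9me3 and 60.4% start sites. Without chromosomes 5, 19 and 20 these were 78.2% SUZ12, 14.6% H3K9me3 and 43.6% start sites. KDM2A reached 50.8% with EPIC2 islands. Consensus was 24.8% at a log2 fold above 2, 15.8% at over 50% overlap and 35.2% without DPPA2 replicate 3. Leaving out 1 of the other DPPA2 or DPPA4 libraries gave 29 to 33.2%, inside the interval. H3K9me3 was 45.8% at a limit of 10%, 13% at 50%, 32% with islands as deposited and 33.8 to 36.8% with 1 replicate. The cause of these moves was not tested, apart from what each limit fixes by construction. An FDR below 0.01 and the 1000 longest kept all 6 values within their intervals.

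No H1299 region in the domains was called for H2AK119ub or H3K27ac in any of the fits made (12 each). Elsewhere in the genome, H2AK119ub had 1 called region with reads per covered length, and H3K27ac had 18 with islands over at least 25%, 5 without a coverage minimum and 13 without DOX replicate 2. Without the replicate block, the number of called regions in the domains was again 0 for both marks. With H661 domains as regions, none of the 500 met the coverage limit, so that fit gave no value. Leaving out 1 library at a time also gave 0 called regions in the domains, with a lone library assumed to vary like the others.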
